A study of Mus musculus with 9 samples.

Results

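Clone 1E7 (KO_1E7 in the plots) was compared with clone 1G2 (CRISPR_1G2 in the plots), a pair of single clones of the mouse cell line Panc02, a pancreatic ductal adenocarcinoma, by bulk sequencing of poly(A) RNA. The 6 libraries of the comparison, 3 from each clone, were taken by their titles from the 9 libraries of the series. The other 3 came from the parental line, which was not edited and is given below for reference. Clone 1E7 is labelled as a knockout of VPAC2 made with CRISPR-Cas9, and clone 1G2 carries the genotype label of a CRISPR wild type, whereas the design text of the series counts both among the clones of the edited cells. All cells grew in DMEM with 10% FBS and received no treatment. Each genotype is a single clone, so an effect of losing VPAC2 and any other difference between these clones cannot be told apart. Nothing in the labels says that the 3 libraries of a clone came from separate cultures, so p-values reflect no more than the spread among these samples, and that spread may be technical.

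VPAC2 is encoded by Vipr2 and lies in the cell membrane, where it binds the neuropeptides VIP (vasoactive intestinal peptide) and PACAP. It couples mainly to the stimulatory G protein, which activates adenylyl cyclase, and the cAMP so formed acts through protein kinase A, the EPAC exchange factors and the CREB transcription factors. Pancreatic ductal adenocarcinoma arises from exocrine epithelium, and its cells lie on a range from an epithelial state, with keratins and tight junctions, to a mesenchymal state that makes more extracellular matrix.

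The transcript of the edited gene was rare in all 6 libraries. Vipr2 had 1, 2 and 1 counts in libraries 1, 2 and 3 of clone 1E7 and 1, 13 and 12 counts in those of clone 1G2. The first 1G2 library was therefore as low as the 1E7 libraries, and the groups overlapped. The log2 fold change of 1E7 against 1G2 was -2.95 (SE 0.91), and its adjusted p of 0.0675 in edgeR's quasi-likelihood test missed the threshold of 0.05. With each library left out in turn the edgeR adjusted p lay between 0.0368 and 0.202, and it was under the threshold only without the first library of clone 1G2, the low one. A count over the whole gene does not show whether the edited transcript is still functional. Vip, which encodes a ligand of the receptor, had 0 counts in each 1E7 library and 1, 2 and 12 counts in the 1G2 libraries, too few to be tested. Ramp1, which encodes a membrane protein that associates with receptors of this family, was at 18.8, 18.1 and 17.5 CPM (read counts relative to the library size, which was corrected by TMM, the trimmed mean of M-values) in clone 1E7 and at 10.0, 20.1 and 10.4 CPM in clone 1G2 (adjusted p = 0.418 in edgeR's test).

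Depth lay between 27898705 and 51878289 gene counts per library over the series. The third library of clone 1G2 lay at one end of the first principal component, followed by the third parental library, in which 15.3% of the counts fell on the single row CT010467.1, beside 0.465% to 1.04% elsewhere, and the second library of clone 1E7 lay closer to the other groups than the other 1E7 libraries did. In the names of the data columns the first and the second library of each group carry dates, different within a group, and the third carries a word in place of a date. The first 1E7 library shares its date with the first parental one and the first 1G2 library with the second parental one, and the date of the second 1E7 library is the latest. What the dates and the word stand for is not given in the sources used here, and the part of the dates in the results was not tested. Krt8, Krt18 and Krt19, keratins of duct epithelium, were present in all 6 clone libraries, whereas Prss1, the trypsinogen of acinar cells, had 0 counts in each. In bulk RNA, fewer cells of a type and less RNA per cell cannot be told apart.

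The clones differed in 2010 of the 15766 genes tested. In clone 1E7, 901 genes were higher and 1109 lower, which are 5.71% and 7.03% of the genes tested and together 12.7%. A change of at least 2-fold was seen for 529 of the higher and 528 of the lower genes. The genes with the largest differences encode proteins of many kinds, among them matrix glycoproteins, transcription factors and signalling proteins. Those that were lower in 1E7 at any size came mostly from a few chromosomes. For all 2010 called genes the lowest library of the higher clone lay above the highest library of the lower clone. Such a gap between the clones was also found for 6088 genes in all, or 38.6% of those tested, so a gap by itself is not particular to the called genes. The median log2 fold change of all genes was -0.03. The number of called genes depended on single libraries: it was 453 without the third and 553 without the first library of clone 1E7, 947 without the first and 949 without the second library of clone 1G2, and 1284 without the first parental library, which enters the shared estimate of spread. Without the second library of clone 1E7 it was 1421. That library and the third libraries of clone 1G2 and of the parental line were also left out together, which leaves 2 libraries a group. Then 5557 of 15633 genes tested were called, 2675 higher and 2882 lower. Calls thus rose over all genes, so a larger count within a list is not by itself particular to that list. Without those 3 libraries, 18 lysosomal genes and 10 matrix glycoprotein genes were higher, and 12 simple epithelial, 9 ephrin and Eph and 10 p53 target genes were lower, beside 12, 8, 7, 5 and 4 with all libraries. Of the DNA methylation and heterochromatin genes 6 were then higher and 11 lower, beside 0 and 5. Integrin genes were 3 higher and 6 lower, beside 0 and 2, and ERK pathway feedback genes 4 higher and 11 lower, beside 2 and 1. In the MHC class I and antigen processing list 5 were higher, beside 0. With all libraries these lists held 31, 18, 24, 16, 26, 25, 15, 22 and 19 tested genes, in the order given. The 3 libraries are those singled out above by their position on the first principal component, so their choice came from these data.

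The genes with the largest rise in clone 1E7 were nearly silent in clone 1G2. Among the 15 with the highest fold change were Thbs2 and Tnc, which encode matrix glycoproteins, Mmp3, which encodes the matrix protease stromelysin-1, and the transcription factor genes Sox13 and Foxp2. Thbs2, which encodes thrombospondin-2, an inhibitor of angiogenesis, was at 2756, 3399 and 2658 CPM in the 3 libraries of clone 1E7 and at 9.99, 11.8 and 5.43 CPM in those of clone 1G2, a ratio of means of 324. All 3 libraries of clone 1E7 were close together and far above the others (log2 fold change 8.34, SE 0.36, edgeR adjusted p = 2.42e-05). Tnc, which encodes tenascin-C, was at 192, 160 and 134 CPM in clone 1E7 and at 1.38, 2.68 and 2.14 CPM in clone 1G2 (log2 fold change 6.29, SE 0.40, edgeR adjusted p = 0.000178). The libraries of each clone again lay together with no overlap. Procr, the endothelial protein C receptor gene, was at 13.7, 10.7 and 12.1 CPM against 0.109, 0.126 and 0.0305 CPM, and Dmd, the dystrophin gene, was at 30.4, 27.6 and 37.2 CPM against 0.399, 0.284 and 0.336 CPM. Both differences passed the edgeR test, with adjusted p-values of 9.64e-05 and 4.09e-05.

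Several of the higher genes varied strongly within clone 1E7. Sox13, a gene of the SoxD transcription factor family, was at 28.0, 92.0 and 38.8 CPM in libraries 1, 2 and 3 of clone 1E7 and at 0.218, 0.567 and 0.397 CPM in clone 1G2, so that the second 1E7 library was the highest (log2 fold change 7.04, SE 0.85, edgeR adjusted p = 0.00312). Mmp3 showed the opposite order, with 76.1, 7.98 and 136 CPM in clone 1E7, the second library being the lowest, and 0.726, 2.14 and 1.5 CPM in clone 1G2 (log2 fold change 5.64, SE 0.94, edgeR adjusted p = 0.00865). C4bp, which encodes a complement inhibitor, was at 9.18, 0.417 and 7.73 CPM in clone 1E7 and had 2 counts over the 3 libraries of clone 1G2, so its ratio of 229 has a 95% counting interval from 63.2 to 1900. Its call was lost when the first or the third library of clone 1E7, or the first or second of clone 1G2, was left out. Ccdc129 had 3 counts in clone 1G2 against 1265 in clone 1E7, a ratio of 319 with an interval from 109 to 1550 that covers counting error only. Tspan7, which encodes a tetraspanin, was at 8.51, 17.1 and 6.60 CPM in clone 1E7 and at 0.0726, 0.0315 and 0.0305 CPM in clone 1G2. Foxp2, Rcan2, which encodes a regulator of calcineurin, Igsf3, which encodes an immunoglobulin superfamily protein, and Lgals7, which encodes galectin-7, were also among the higher genes, together with a gene that the deposited table names Ksr2. The identifier of that row belongs to Cnksr2 in the GENCODE annotation of GRCm38, and its deposited position is on chromosome X. By its identifier the gene is thus Cnksr2, and the deposited symbol differs.

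**Figure D1:**
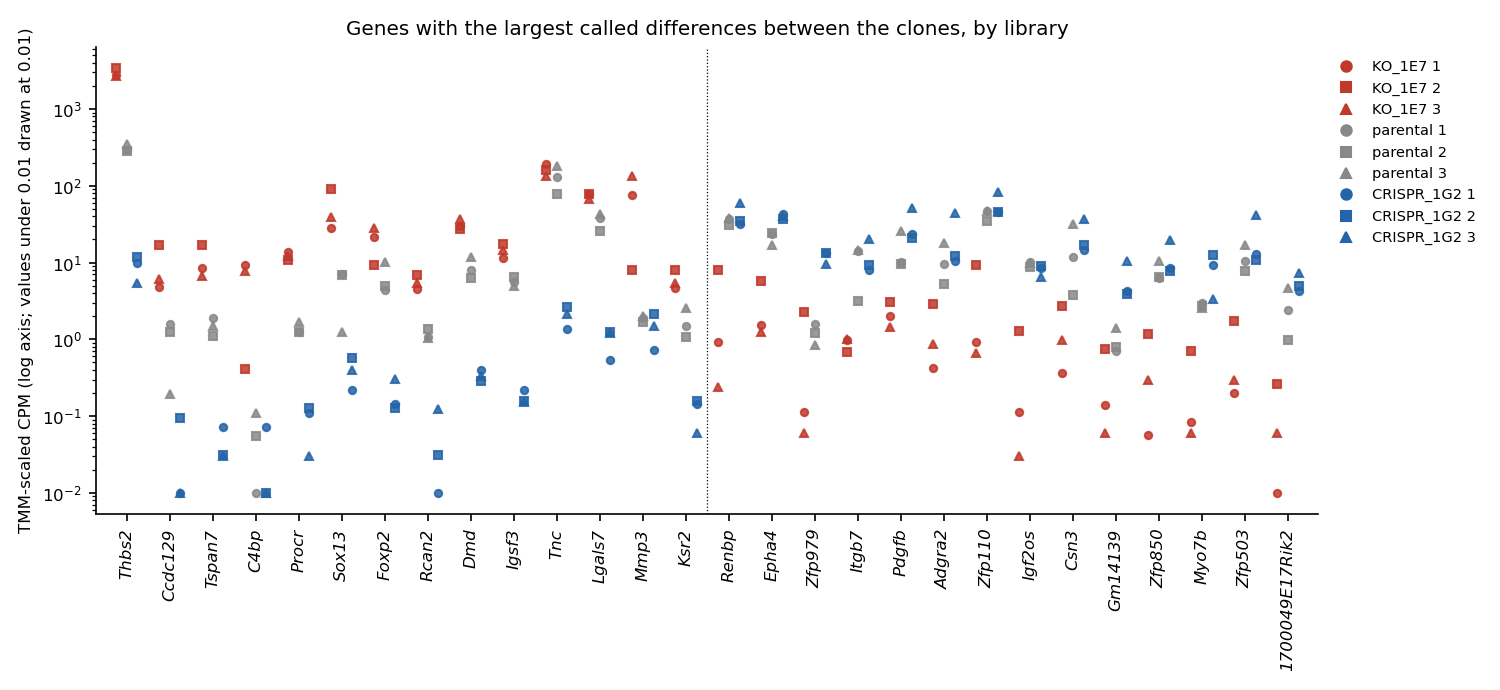
Levels of 28 of the 30 genes with the largest fold change between the clones, 14 higher and 14 lower in clone 1E7, in each of the 9 libraries, as CPM on a log axis with values under 0.01 drawn at 0.01. Points are libraries coloured by group. The 1E7 and 1G2 points do not overlap for any of the genes, because only genes without overlap were chosen. The parental points usually lie between them, as for Thbs2 with 289, 281 and 347 CPM. The choice of the largest differences favours such a position.

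Promoters of the extreme genes are shown because several of them were nearly silent in 1 clone, and CG pairs are the sites at which DNA methylation acts; methylation was not measured in the data used here. For each gene, RefSeq on GRCm38.p6 gives 300 bases, 250 before and 50 after the start of the gene, on the strand of the gene. Of the 30 genes with the largest fold change, 20 had a promoter in that table. The motif searched was CG, which reads the same on both strands, and its occurrences are in capitals. The genes printed had a mean of at least 20 CPM in the higher clone. The promoter of Sox13, at chr1:133424163-133424462 on the minus strand, held 40 such pairs, and 3.8% of the 27025 promoters in the table held as many or more. That of Thbs2, at chr17:14694213-14694512 on the minus strand, held 4, and 68.1% of all promoters held as many or more. Among the genes lower in clone 1E7, Zfp110, at chr7:12834511-12834810 on the plus strand, held 15 (35.2% of promoters), and Zfp503, at chr14:21989552-21989851 on the minus strand, held 19 (28.4%).
Sox13: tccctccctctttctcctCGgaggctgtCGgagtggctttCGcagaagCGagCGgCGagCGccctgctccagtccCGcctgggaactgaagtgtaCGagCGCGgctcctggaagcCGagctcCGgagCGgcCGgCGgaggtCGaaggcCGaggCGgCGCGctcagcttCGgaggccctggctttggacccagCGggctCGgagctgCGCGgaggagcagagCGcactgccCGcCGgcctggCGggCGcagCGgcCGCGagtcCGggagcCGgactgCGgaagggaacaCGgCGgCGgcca
Thbs2: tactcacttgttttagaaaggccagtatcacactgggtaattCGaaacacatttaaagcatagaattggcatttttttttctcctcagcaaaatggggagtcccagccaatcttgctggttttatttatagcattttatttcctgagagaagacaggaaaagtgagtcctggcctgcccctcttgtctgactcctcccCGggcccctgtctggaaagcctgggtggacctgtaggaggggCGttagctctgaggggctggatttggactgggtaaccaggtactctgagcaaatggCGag
Zfp110: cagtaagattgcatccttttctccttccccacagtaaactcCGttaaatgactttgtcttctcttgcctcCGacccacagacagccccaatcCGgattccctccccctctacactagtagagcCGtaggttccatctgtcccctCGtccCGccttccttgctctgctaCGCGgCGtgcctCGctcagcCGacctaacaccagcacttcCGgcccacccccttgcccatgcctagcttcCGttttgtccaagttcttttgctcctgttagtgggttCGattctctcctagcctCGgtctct
Zfp503: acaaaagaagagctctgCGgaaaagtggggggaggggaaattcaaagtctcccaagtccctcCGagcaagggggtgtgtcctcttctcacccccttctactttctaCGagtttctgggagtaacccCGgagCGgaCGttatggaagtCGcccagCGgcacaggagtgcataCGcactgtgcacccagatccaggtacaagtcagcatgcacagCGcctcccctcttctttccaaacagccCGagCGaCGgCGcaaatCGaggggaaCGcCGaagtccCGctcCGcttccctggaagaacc

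The promoters of the genes with extreme folds thus ranged from CG-poor to CG-rich. The median number of CG pairs was 10 in the 11 promoters of the higher genes, 8 in the 9 of the lower genes and 7 over all promoters. At or above that overall median were 6 of the 11 and 5 of the 9, beside 52.3% of all promoters. A count of CG letters is a description of the sequence only.

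The genes that fell most in clone 1E7 included growth factor, receptor and zinc-finger protein genes. Pdgfb, which encodes the B chain of platelet-derived growth factor, was at 2.01, 3.07 and 1.43 CPM in clone 1E7 and at 23.6, 20.6 and 51.9 CPM in clone 1G2 (log2 fold change -3.87, SE 0.56, edgeR adjusted p = 0.00528). Epha4, which encodes a receptor tyrosine kinase for ephrins, was at 1.55, 5.76 and 1.25 CPM in clone 1E7 and at 43.4, 37.5 and 40.9 CPM in clone 1G2 (log2 fold change -3.81, SE 0.54, edgeR adjusted p = 0.00507). The groups did not overlap for either gene, and the second 1E7 library was the highest of its clone. Zfp503, which encodes a zinc-finger repressor, was at 0.198, 1.72 and 0.298 CPM against 12.8, 10.9 and 41.4 CPM (log2 fold change -4.80, SE 0.89, edgeR adjusted p = 0.0127). Zfp110, another zinc-finger gene, was at 0.933, 9.23 and 0.657 CPM against 45.5, 46.1 and 82.8 CPM. Csn3, the kappa-casein gene, was at 0.367, 2.75 and 0.985 CPM against 14.6, 17.1 and 37.0 CPM. The same order of libraries recurred among the lower genes, with library 2 of clone 1E7 the nearest to clone 1G2 in 14 of these 15. Among the 15 higher genes that library was the nearest in only 6. Itgb7, an integrin subunit gene, was the exception among the lower genes, at 0.989, 0.682 and 1.01 CPM in clone 1E7 and at 8.10, 9.33 and 20.3 CPM in clone 1G2.

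The other lower genes of this group included Myo7b, which encodes a myosin of microvilli, the zinc-finger genes Zfp850 and Zfp979, Adgra2, which encodes an adhesion receptor, Renbp, Gm14139, 1700049E17Rik2 and Igf2os. Igf2os lies antisense to Igf2, and because the library kit does not mark strand, reads of the pair cannot be told apart. Zinc-finger genes have close relatives, and their separate values are uncertain where reads are shared. Several of these calls depended on single libraries: those of Pdgfb and Epha4 held with each library left out in turn, whereas those of Zfp503, Zfp110, Csn3, Adgra2, Gm14139, Igf2os, Renbp and Zfp979 were lost without the first or without the third library of clone 1E7. Those of 1700049E17Rik2, Itgb7 and Zfp850 were lost without the third and that of Myo7b without the first. Of the 30 genes with the largest fold change, 16 kept their call with every library left out in turn, and none changed direction.

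The intermediate position of the second library of clone 1E7 extended to a larger set of genes that were almost absent from the other 1E7 libraries. In the mean of the first and the third libraries of clone 1E7, 59 genes lay under 5% of the 1G2 mean, among genes with a mean of at least 5 CPM in clone 1G2, and 35 of the 59 were called. In those libraries their median was 2.19% of the 1G2 mean, while in the second library it was 22.4%, with quartiles of 17.3% and 31.5%. In the parental libraries these genes were at a median of 58% of the 1G2 mean. The choice of genes fixes the low values of the first and the third libraries, so the result is the value in the second. When the same rule was applied to the second and the third libraries, 5 genes were found and the first library had a median of 1.02%. Applied to the first and second libraries, it found 4 genes, with a median of 1.24% in the third. Uhrf2, which encodes a protein that binds modified cytosine, was 1 such gene, at 0.820, 7.45 and 0.836 CPM in clone 1E7 and at 24.7, 27.6 and 49.3 CPM in clone 1G2, with 37.5, 33.0 and 43.2 CPM in the parental libraries (log2 fold change -3.45, SE 0.81, edgeR adjusted p = 0.0271). In the opposite direction, 31 genes were under 5% of the 1E7 mean in clone 1G2, with a median of 2.23%. For these the second 1E7 library was at a median of 85.1% of the mean of the other 1E7 libraries, and the parental mean was at 13.9% of the 1E7 mean. What distinguishes the second 1E7 library was not tested.

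**Figure D2:**
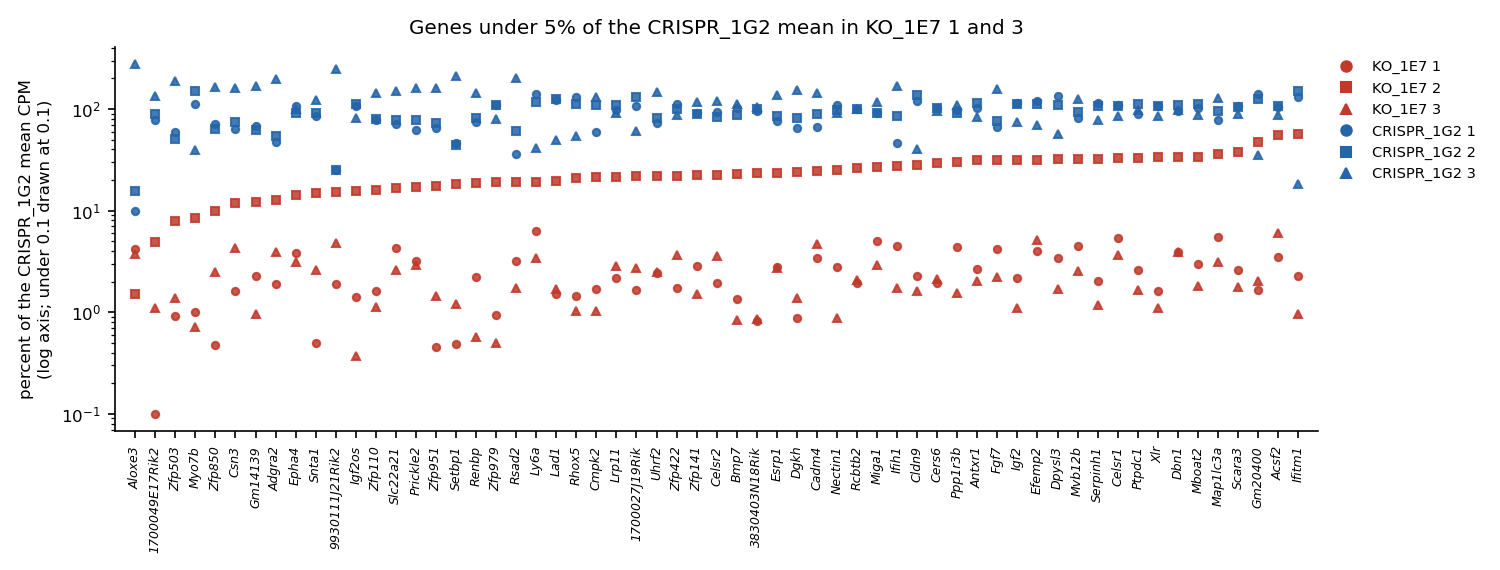
Levels of the 59 genes that lay under 5% of the 1G2 mean in the mean of libraries 1 and 3 of clone 1E7. They are given as percent of the 1G2 mean on a log axis (values under 0.1 drawn at 0.1), in each library of clones 1E7 and 1G2. Each point is a gene in 1 library: those of the second 1E7 library centre on 22.4%, above the other 1E7 libraries at a median of 2.19%. The parental libraries are not drawn, and their mean was at a median of 58%.

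Matrix glycoprotein genes rose in clone 1E7 well beyond the largest 2. Of 18 tested genes for thrombospondins, proteoglycans, fibulins and related proteins, 8 were higher in clone 1E7 and 1 was lower, beside 5.71% and 7.03% of all genes, and their median log2 fold change was 0.87. Summed over the list, they reached 9575, 11380 and 10020 CPM in the libraries of clone 1E7 and 3791, 4315 and 3070 CPM in those of clone 1G2, much of it from Thbs2. Bgn, which encodes the small proteoglycan biglycan, was at 441, 153 and 310 CPM in clone 1E7 and at 7.34, 9.68 and 7.42 CPM in clone 1G2 (log2 fold change 5.21, SE 0.40, edgeR adjusted p = 0.000433). Sparc, which encodes a collagen-binding protein, was at 311, 285 and 323 CPM against 140, 134 and 135 CPM (log2 fold change 1.17, SE 0.11, edgeR adjusted p = 0.000981). The libraries within each clone agreed closely for Sparc and less so for Bgn, whose second 1E7 library was the lowest. Fbln1, Thbs1, Ecm1 and Efemp1 were also higher, and the fibulin gene Efemp2 was lower (log2 fold change -2.84, SE 0.72, edgeR adjusted p = 0.0366). Without the third library of clone 1E7 the count of higher genes was 5, and the call of Efemp2 was lost without any 1 of 6 libraries. Genes for collagens and the enzymes that fold and crosslink them were split, with 4 of 25 higher and 4 lower: Col8a1 rose (log2 fold change 4.21), and Col7a1, the collagen of anchoring fibrils, fell (-2.75). The 2 chains of type I collagen went in opposite directions, Col1a2 higher at 3.67 and Col1a1 lower at -1.59. Col1a2 was at 6.47, 0.872 and 1.64 CPM in clone 1E7 and at 0.327, 0.126 and 0.244 CPM in clone 1G2, with the first 1E7 library far the highest. The edgeR adjusted p-values, 0.0482 for Col1a2 and 0.0449 for Col1a1, were close to the threshold. The call of Col1a1 was lost whichever of the 9 libraries was left out, and that of Col1a2 for 6 of them. Without the first or the third library of clone 1E7, 2 collagen genes were higher and 0 lower, and without the first of clone 1G2, 2 were higher and 2 lower; without the first parental library 2 were lower. Some markers of fibroblasts, cells that make much collagen, stood out in that first 1E7 library. Dcn, the decorin gene, had 21, 0 and 0 counts in clone 1E7, Lum had 10, 0 and 0, and Dpt had 7, 1 and 0, while each had at most 3 counts in any 1G2 library. Col3a1 was at 12.8, 1.08 and 4.18 CPM in clone 1E7 and at 0.872, 6.93 and 3.69 CPM in clone 1G2. Other markers of the list were lowest in the first 1E7 library. In libraries 1, 2 and 3 of clone 1E7, Acta2 was at 1.2, 3.1 and 6.9 CPM and Postn at 2.4, 4.4 and 7.9 CPM. Pdgfra was at 9.16, 10.95 and 14.39 CPM there. Over the 16 fibroblast markers, of which 9 were tested, 2 were higher and 1 lower, and their sum was 153.4, 79.2 and 133.4 CPM in clone 1E7 and 59.4, 89.5 and 116.1 CPM in clone 1G2, with overlap. Their part in the matrix, collagen and mesenchymal calls was not tested.

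Genes of matrix turnover and attachment went both ways. Of 27 tested proteases and inhibitors, 3 were higher and 4 lower, beside 5.71% and 7.03% of all genes. Mmp3 was the largest of the higher genes, and Plau, the urokinase gene, and Plaur, the gene of its receptor, were among the lower. Plaur was at 42.2, 72.1 and 43.8 CPM in clone 1E7 and at 142, 151 and 136 CPM in clone 1G2 (log2 fold change -1.44, SE 0.26, edgeR adjusted p = 0.0109). Of 16 basement membrane genes, 1 was higher and 3 lower, including Lamb3, which encodes a laminin chain. Lamb3 was at 0.339, 0.891 and 0.478 CPM in clone 1E7 and at 2.58, 3.44 and 4.3 CPM in clone 1G2 (log2 fold change -2.57, SE 0.44, edgeR adjusted p = 0.00902), and its call was lost without the third library of clone 1E7. All 1G2 libraries were above all 1E7 libraries for Plaur and for Lamb3. Of 15 integrin subunits, 0 rose and 2 fell, Itga2 (log2 fold change -3.58) and Itgb7. The number of lower protease genes was 1 without the first 1E7 library and 2 without the second or the third 1E7 or the second 1G2 library. The number of lower basement membrane genes was 1 without the first or the third and 5 without the second 1E7 library. Without the third, 1 integrin gene was lower.

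Part of the lysosomal genes rose: 12 of 31 tested members, or 38.7%, were higher in clone 1E7 and 1 was lower, beside 5.71% and 7.03% of all genes, and 10 of the 31 had a log2 fold change below 0. Their summed level was 6819, 5456 and 6195 CPM in clone 1E7 and 3910, 4209 and 4343 CPM in clone 1G2, so the groups did not overlap. The rise included enzymes and membrane proteins. Ctsb, which encodes the protease cathepsin B, was at 852, 796 and 824 CPM in clone 1E7 and at 407, 445 and 514 CPM in clone 1G2 (log2 fold change 0.86, SE 0.15, edgeR adjusted p = 0.0107). Psap, which encodes the precursor of the saposins, was at 848, 674 and 810 CPM against 401, 440 and 338 CPM (log2 fold change 0.98, SE 0.16, edgeR adjusted p = 0.00697). Hexa, which encodes the alpha subunit of hexosaminidase, was far lower in clone 1G2 than in all other libraries, with 38.6, 23.5 and 32.2 CPM in clone 1E7, 0.763, 0.504 and 1.13 CPM in clone 1G2 and 26.1, 18.5 and 35.3 CPM in the parental line (log2 fold change 5.29, SE 0.39, edgeR adjusted p = 0.000388). Among the other higher genes, Gaa, Lamp1, Glb1, Mcoln1, Ctsa, Npc2 and Laptm4a had log2 fold changes of 0.55 to 1.13. Neu1, which encodes a sialidase, was the lower gene (-0.96). The 12 genes were spread over the genome, 2 of them on chromosome 8 and 8 on chromosomes other than 2, 7, 8, 11, 16 and X. The count of higher genes was 4 without the third and 5 without the first library of clone 1E7, and 6 without the first and 7 without the second library of clone 1G2.

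Some epithelial markers were lower and some mesenchymal markers higher in clone 1E7. Of 24 tested markers of simple epithelium, 0 were higher and 7 lower, beside 5.71% and 7.03% of all genes. The median log2 fold change of these markers was -0.83. Krt7, a keratin of ducts, was at 4.01, 4.41 and 5.31 CPM in clone 1E7 and at 67.2, 48.0 and 13.7 CPM in clone 1G2 (log2 fold change -3.23, SE 0.53, edgeR adjusted p = 0.00759). Epcam, the epithelial cell adhesion molecule gene, was at 1.02, 3.43 and 0.746 CPM against 16.6, 16 and 4.95 CPM (log2 fold change -2.83, SE 0.67, edgeR adjusted p = 0.0292). For both genes the third 1G2 library was the lowest of its clone and still above all 1E7 libraries. Esrp1, a splicing regulator of epithelial cells, Ovol1, an epithelial transcription factor, Cldn7 and Ocln, which encode tight junction proteins, and Tjp1, which encodes their scaffold, made up the 7. Cdh1, the E-cadherin gene, did not follow them, with 26.6, 47.1 and 15.0 CPM in clone 1E7 and 11.6, 16.3 and 5.83 CPM in clone 1G2, a difference that did not pass the test. The summed level of the list was 1413, 2246 and 1382 CPM in clone 1E7 and 2178, 2407 and 1223 CPM in clone 1G2, with overlap between the clones, and Krt8, Krt18 and Krt19 overlapped as well. The number of lower epithelial genes was 2 without the first or the third library of clone 1E7, 3 without the first or second library of clone 1G2 and 4 without the first parental library. Of 18 mesenchymal genes, 5 were higher and 1 lower. Axl, a receptor tyrosine kinase gene, was at 492, 493 and 487 CPM in clone 1E7 and at 239, 232 and 208 CPM in clone 1G2 (log2 fold change 1.12, SE 0.12, edgeR adjusted p = 0.00216). Twist2 and Prrx1, transcription factor genes of mesenchyme, and Pdgfrb and Sparc were the other higher genes, and Cdh2, the N-cadherin gene, was lower (-1.55). The call of Cdh2 was lost without any 1 of 7 libraries, among them each of the 3 of clone 1E7. Without the third library of clone 1E7, 3 mesenchymal genes were higher.

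Among 12 genes of pancreatic duct identity, 0 were higher and 4 lower, beside 5.71% and 7.03% of all genes. The 4 were Krt7, Car2, Onecut2 and Plac8. Car2, which encodes carbonic anhydrase II, was at 0.0848, 0.322 and 0.0597 CPM in clone 1E7 and at 3.45, 2.74 and 4.73 CPM in clone 1G2 (log2 fold change -4.43, SE 0.60, edgeR adjusted p = 0.0045). Plac8 was at 17.6, 57.2 and 15.3 CPM in clone 1E7 and at 285, 248 and 295 CPM in clone 1G2 (log2 fold change -3.20, SE 0.48, edgeR adjusted p = 0.00599). For Plac8 the parental libraries were at 230, 268 and 295 CPM, within the range of clone 1G2 except for the lowest. Of 10 basal and squamous epithelial genes, 2 were higher and 2 lower. Trp63, which encodes p63, the transcription factor of basal epithelium, was at 35.0, 6.67 and 40.5 CPM in clone 1E7 and at 0.472, 0.662 and 0.916 CPM in clone 1G2 (log2 fold change 5.31, SE 0.67, edgeR adjusted p = 0.00343). Krt15, a basal keratin, was at 11.2, 15.9 and 20.9 CPM against 1.20, 2.90 and 1.74 CPM (log2 fold change 3.03, SE 0.38, edgeR adjusted p = 0.00342). Both were higher in every 1E7 library, whereas Perp, which encodes a desmosomal protein and is also a p53 target, and Fat2, a cadherin gene, were lower. Fat2 had 2 counts over the libraries of clone 1E7 and 83 over those of clone 1G2, a ratio of 54.9 with a counting interval from 14.7 to 461, and its call was lost without any library of clone 1E7 or the second of clone 1G2.

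**Figure D3:**
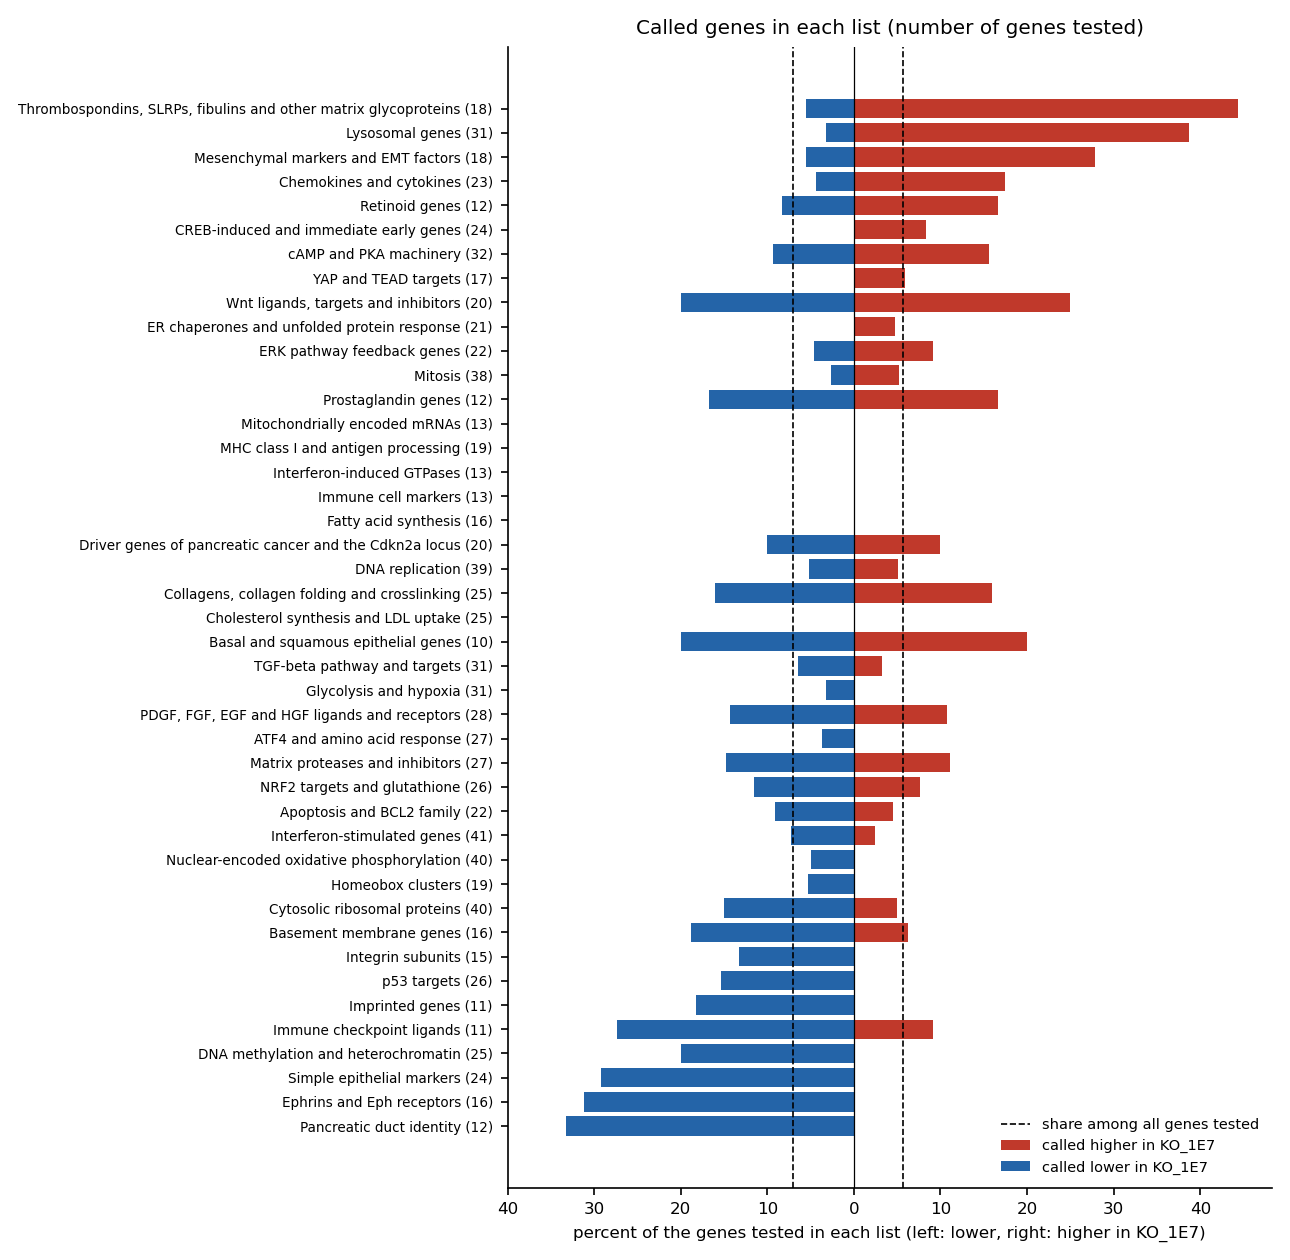
Percent of the tested genes of each list with at least 10 tested genes that were called lower (left) or higher (right) in clone 1E7 than in clone 1G2, with dashed lines at the shares among all genes tested, 7.03% and 5.71%. Bars start at 0 and carry no error: matrix glycoproteins and lysosomal genes reach farthest to the right, and epithelial, duct and Eph lists have calls only on the left.

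The machinery that carries the VPAC2 signal changed in single parts and in both directions. Of 32 tested cAMP and protein kinase A genes, 5 were higher and 3 lower. These are 15.6% and 9.38%, beside 5.71% and 7.03% of all genes, so the lower share was near that of all genes. The median log2 fold change of the list was 0.00. Adcy7, which encodes an adenylyl cyclase, was at 104, 84.6 and 122 CPM in clone 1E7, at 23.6, 29.1 and 14.2 CPM in clone 1G2 and at 37.8, 35.1 and 29.7 CPM in the parental line (log2 fold change 2.21, SE 0.27, edgeR adjusted p = 0.00305). Pde4b and Pde4d, which encode phosphodiesterases that break down cAMP, were higher by 1.38 and 1.08 on the log2 scale. All 3 1E7 libraries were above all 1G2 libraries for each of these genes. Crtc1 and Crtc2, CREB coactivator genes, were higher (0.84 and 0.47), and their relative Crtc3 was lower (-0.84). Rapgef4, which encodes EPAC2, had 4 counts over the libraries of clone 1E7 and 72 over those of clone 1G2, most of them in the third library. Prkar2a, which encodes a regulatory subunit of protein kinase A, was lower (-0.52). The number of higher genes was 1 without the first or the third library of clone 1E7 or the first or second of clone 1G2, and that of lower genes was 1 without any 1 library of clone 1E7 or the first parental library. Of 24 CREB-induced and immediate early genes, Egr1 and Pde4d were higher, or 8.33% beside 5.71% of all genes, and 0 lower. Egr1 was at 199.97, 138 and 264 CPM in clone 1E7 and at 60.9, 69.7 and 32.8 CPM in clone 1G2 (log2 fold change 1.88, SE 0.43, edgeR adjusted p = 0.0249). Both calls were lost without the first or the third library of clone 1E7 or the first or second of clone 1G2.

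Ligands and receptors of several other pathways differed between the clones. In the ephrin family, 0 of 16 tested genes were higher and 5 lower, beside 5.71% and 7.03% of all genes. The median log2 fold change of the family was -0.85, and the 5 lower genes were Epha4, Efna2, Efna3, Efnb3 and Ephb3. This count was 1 when any 1 library of clone 1E7 was left out and 3 without the first parental or the third 1G2 library. Of 20 Wnt ligands, targets and inhibitors, 5 were higher and 4 lower. Wnt7a was at 0.0565, 0.133 and 0.0895 CPM in clone 1E7 and at 4.21, 3.59 and 1.43 CPM in clone 1G2 (log2 fold change -4.95, edgeR adjusted p = 0.0041). Wnt7b was at 30.5, 111 and 51.0 CPM against 276, 269 and 135 CPM (log2 fold change -1.82, SE 0.46, edgeR adjusted p = 0.0345). In contrast to these ligands, Notum, which encodes an enzyme that inactivates Wnt proteins, was higher, at 25.3, 28.7 and 29.5 CPM against 6.39, 7.75 and 8.03 CPM (log2 fold change 1.91, SE 0.27, edgeR adjusted p = 0.0047). Wnt10b, Wnt10a, Wnt6 and Dkk2, which encodes an inhibitor of Wnt coreceptors, were the other higher genes. Without the first or the third library of clone 1E7, 2 Wnt genes were higher and 2 lower, and without the first or second library of clone 1G2, 2 or 3 were higher. Among 28 ligands and receptors of the PDGF, FGF, EGF and HGF families, 3 were higher and 4 lower. Pdgfrb, the receptor for the B chain, was at 110, 47.8 and 93.9 CPM in clone 1E7 and at 18.2, 22.9 and 29.8 CPM in clone 1G2 (log2 fold change 1.83, SE 0.32, edgeR adjusted p = 0.0106), opposite to its ligand gene Pdgfb. Pdgfc was lower (log2 fold change -2.55, SE 0.25, edgeR adjusted p = 0.00138) and Fgf2 was higher (1.49). Of this list, 1 gene was higher without the third 1E7 library, and 2 were lower without the first or the third.

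Genes through which tumour cells act on immune cells were mixed. Of 23 tested chemokines, cytokines and receptors, 4 were higher and 1 lower, beside 5.71% and 7.03% of all genes. Il33, which encodes an alarmin cytokine, was at 63.4, 141 and 114 CPM in clone 1E7, at 2.36, 3.47 and 1.28 CPM in clone 1G2 and at 38.4, 44.2 and 15.6 CPM in the parental line (log2 fold change 5.48, SE 0.56, edgeR adjusted p = 0.0018). Osmr, the oncostatin M receptor gene, was at 13.1, 3.96 and 13.3 CPM against 0.363, 0.441 and 1.37 CPM (log2 fold change 3.78, SE 0.65, edgeR adjusted p = 0.00942). Both were higher in every 1E7 library than in every 1G2 library, as were Il11 and Cxcl15. Cxcl16 was lower, at 7.66, 7.54 and 5.73 CPM against 25.9, 26.0 and 57.2 CPM (log2 fold change -2.38, SE 0.41, edgeR adjusted p = 0.00997). Of 11 checkpoint ligands, 1 was higher, Lgals9, and 3 were lower, Pvr, Cd276 and Nectin2. Of these 3, 2 lie on chromosome 7, where many genes of all kinds were lower in clone 1E7. The lower count was 0 without the first or the third 1E7 library and 1 without the first or second 1G2 library. The number of higher cytokine genes was 2 without the first 1E7 or the second 1G2 library. Interferon-stimulated genes gave 1 higher and 3 lower of 41, or 2.44% and 7.32%. The lower share was near that of all genes and the higher share below it, and the median log2 fold change of the list was -0.63. Without the third parental library 9 of its genes were lower, and without the first 1G2 library 1. The count of lower genes was 0 without the first parental, the first or the third 1E7 or the second or the third 1G2 library. In the MHC class I and antigen processing list edgeR called 0 of 19 genes, with 2 higher and 1 lower at an unadjusted p under 0.05, and DESeq2 called 1. In the list of interferon-induced GTPases edgeR called 0 of 13, with 3 lower at an unadjusted p under 0.05, and DESeq2 called 2.

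The third library of clone 1G2 carried high levels of p53 target mRNAs, and its part in the calls below was measured by leaving it out. Their sum was 2804, 3220 and 9652 CPM in libraries 1, 2 and 3 of clone 1G2 and 2248, 2368 and 2278 CPM in clone 1E7. In the parental line the sum was 2515, 2217 and 5104 CPM, so the third parental library was also the highest of its group. Of 26 tested targets, 0 were higher and 4 lower in clone 1E7, beside 5.71% and 7.03% of all genes. The 4 were Perp, Phlda3, Aen and Bax, the last encoding a protein that promotes apoptosis. Bax was at 91.5, 77.8 and 85 CPM in clone 1E7 and at 139, 134 and 162 CPM in clone 1G2 (log2 fold change -0.77, SE 0.13, edgeR adjusted p = 0.0076). Phlda3 was at 84.9, 66.7 and 59.9 CPM against 147, 168 and 551 CPM, so the third 1G2 library was far above the rest of its clone. Without that library the median log2 fold change of the targets was -0.39 in place of -1.25, and 3 of them were lower. Without the third library of clone 1E7, 1 was lower, and without its first or second or the first parental library, 2. Aen and Bax lie on chromosome 7, where many genes of all kinds were lower in clone 1E7. Cholesterol synthesis genes were low in the same 1G2 library, with sums of 7171, 7112 and 1366 CPM in clone 1G2. The sums were 7874, 6150 and 7751 CPM in clone 1E7 and 4357, 6742 and 1469 CPM in the parental line. The third parental library was thus low as well. Of the 25 cholesterol synthesis genes, 0 were called by edgeR, at an unadjusted p under 0.05 or by DESeq2.

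Genes of chromatin and of protein synthesis changed in part. Of 25 tested genes for DNA methylation and heterochromatin, 0 were higher and 5 lower, beside 5.71% and 7.03% of all genes. Among the 5 were Uhrf2, Nsd1, Dnmt3a and Suv39h2. Nsd1, which encodes a methyltransferase for histone H3 lysine 36, was at 18.7, 19.6 and 20.6 CPM in clone 1E7, at 46.1, 46.8 and 40.1 CPM in clone 1G2 and at 57.7, 50.5 and 48.2 CPM in the parental line (log2 fold change -1.18, SE 0.13, edgeR adjusted p = 0.00216). The 3 libraries of each clone lay close together for Nsd1, whereas Dnmt3a, a de novo DNA methyltransferase gene, was at 32.3, 50.8 and 33.9 CPM against 61.3, 60.1 and 93.3 CPM (log2 fold change -0.87, SE 0.23, edgeR adjusted p = 0.0404). The count of 5 was 1 without the first or the third 1E7, the first 1G2 or the first parental library, 2 without the second or the third 1G2 library and 3 without the second parental library; Nsd1 kept its call in each case. With 3 libraries left out together, as above, 6 genes of this list were higher and 11 lower, so its calls then went both ways. Over all 15633 genes tested in that fit, 2675 were higher and 2882 lower. Of 40 cytosolic ribosomal protein genes, 2 were higher and 6 lower, and all 6 lower genes were among the 11 tested members on chromosome 7. Rps16 was at 268, 275 and 246 CPM in clone 1E7, at 466, 459 and 412 CPM in clone 1G2 and at 449.98, 480.2 and 402 CPM in the parental line (log2 fold change -0.76, SE 0.12, edgeR adjusted p = 0.00697). Outside chromosome 7, 0 ribosomal protein genes were lower. The count of 6 was 0 without the third 1E7 library, 1 without the first 1E7 or the first or second 1G2 library and 3 without the second 1E7 or the first parental library. Rps6 on chromosome 4 was higher, at 3240.5, 3039 and 3289.9 CPM against 1814, 1691 and 1979.6 CPM, though reads of its processed copies may be shared. The 13 mRNAs encoded in mitochondrial DNA had log2 fold changes above 0 in 13 of 13, with a median of 0.34, and edgeR called 0 of them: mt-Co1 had an adjusted p of 0.0564. At an unadjusted p under 0.05 there were 3, and DESeq2 called 3, all higher.

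Retinoid and prostaglandin genes included several large differences. Cyp26b1, which encodes an enzyme that degrades retinoic acid, was higher, at 18.8, 8.05 and 9.88 CPM in clone 1E7 and at 0.763, 1.48 and 1.43 CPM in clone 1G2 (log2 fold change 3.31, SE 0.53, edgeR adjusted p = 0.00731). Rxra, a retinoid X receptor gene, was lower, which makes 2 higher and 1 lower of 12, beside 5.71% and 7.03% of all genes. In the prostaglandin list 2 of 12 were higher and 2 lower. Slco2a1, which encodes the prostaglandin transporter, was at 47.2, 66.3 and 56.9 CPM against 2.14, 3.37 and 1.56 CPM (log2 fold change 4.59, SE 0.31, edgeR adjusted p = 0.000252), and the receptor gene Ptger4 was also higher. Ptges, which encodes a prostaglandin E synthase, was lower, at 0.537, 0.720 and 0.448 CPM against 2.03, 2.36 and 2.23 CPM (log2 fold change -1.94, SE 0.31, edgeR adjusted p = 0.00697). The transporter and the synthase were thus separated between the clones in opposite directions. Slco2a1 and Cyp26b1 kept their calls with each library left out in turn, and Rxra and Ptger4 did not.

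The parental line helps to place a difference in one clone or the other, with the caution that both contrasts use the same 3 parental libraries. Against the parental line, clone 1E7 had 401 higher and 453 lower genes, and clone 1G2 had 0 higher and 40 lower genes in edgeR's test, with 1218 at an unadjusted p under 0.05. For the 15 genes with the largest rise, the parental mean lay between the clone means in 15. These genes, and those with the largest fall below, were picked by the size of the difference between the clones. A parental mean between the clones is therefore largely set by that choice. Against the parental line, clone 1E7 differed in 11 of the 15 and clone 1G2 in 11. Thbs2 differed on both sides, by 3.27 in clone 1E7 and by -5.07 in clone 1G2 on the log2 scale. Tnc was at 131, 77.4 and 181 CPM in the parental line, with a log2 fold change of 0.32 in clone 1E7 (edgeR adjusted p = 0.583) and of -5.96 in clone 1G2. Hexa had the same kind of pattern, with 0.24 (edgeR adjusted p = 0.694) and -5.05 (edgeR adjusted p = 0.00093). For Tnc and Hexa, then, the low clone was 1G2. For the 15 genes with the largest fall, the parental mean lay between the clone means in 14, clone 1E7 differed from the parental line in 7 and clone 1G2 in 0.

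The genes lower in clone 1E7 were concentrated on a few chromosomes. Chromosomes 7, 16, 2, 11 and X held 29.2% of the genes tested and 733 of the 1109 lower calls, or 66.1%, beside 122 of the 901 higher calls. On these 5 chromosomes 15.9% of the genes were lower, and on the other chromosomes apart from 8 it was 3.47%. Chromosome 8 showed the reverse, with 137 of 892 genes higher, or 15.4%, and 19 lower. The chromosomes were singled out after their values were seen, so these shares are a description. The median log2 fold change, less that of all genes, was -0.50 on chromosome 7, -0.49 on chromosome 16, -0.30 on X, -0.25 on 11, -0.24 on 2 and 0.37 on chromosome 8. These medians moved little with single libraries: with each library left out in turn that of chromosome 7 lay between -0.57 and -0.46, that of chromosome 16 between -0.54 and -0.45 and that of chromosome 8 between 0.33 and 0.42. The counts of calls did depend on single libraries. Chromosome 7 had 274 lower genes, which became 75 without the first and 51 without the third library of clone 1E7 and 142 and 146 without the first and second of clone 1G2. Chromosome 16 had 125, which became 45, 33, 78 and 80 in the same order. The 137 higher genes of chromosome 8 became 35, 25, 56 and 53, and 80 without the first parental and 91 without the second 1E7 library.

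**Figure D4:**
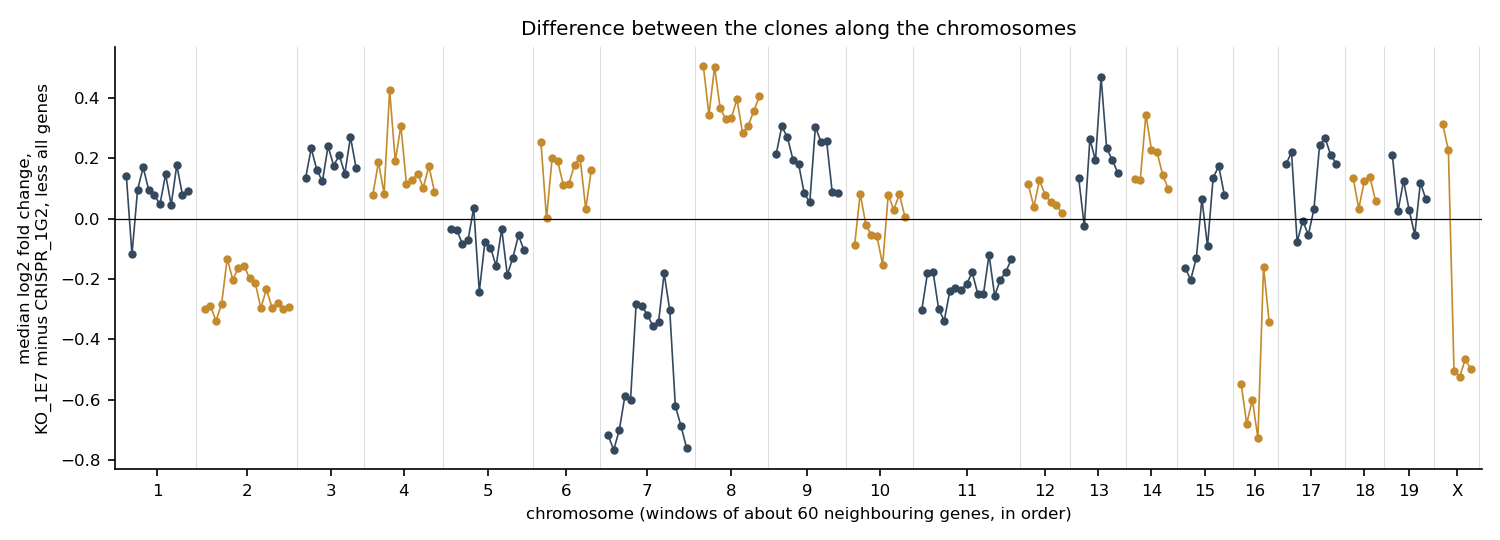
Median log2 fold change of clone 1E7 against clone 1G2, less the median of all genes, in consecutive windows of about 60 expressed genes along each chromosome. Each point is 1 window, without error bars: windows of chromosome 7 lie between -0.77 and -0.18, and those of chromosome 8 between 0.28 and 0.50.

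Within chromosomes the shift was uneven. Windows of about 60 genes with a mean above 1 CPM were laid along GRCm38, and spans were divided where the window medians changed. The start of chromosome 7, from 3289080 to 35318440, had window medians of -0.77 to -0.59, and the end, from 126649309 to 145284011, had -0.76 to -0.62. Between them the windows lay at -0.36 to -0.18. At the start of chromosome 7, 116 of 309 genes were lower and 4 higher, and at its end 78 of 186 were lower and 5 higher. On chromosome 16 the first span, from 3744093 to 44163366, had -0.73 to -0.55, with 101 of 246 genes lower, while the rest had -0.34 to -0.16. Chromosome X turned within its length: its first span, from 6399854 to 57393036, lay at 0.23 to 0.31 with 16 of 116 genes higher and 2 lower, and the rest, from 59062145 to 170005736, at -0.53 to -0.47 with 62 of 233 lower and 8 higher. Chromosome 8 was raised along its whole length, at 0.28 to 0.50 in all 11 windows. A single window of chromosome 4, from 58995062 to 94556796, stood at 0.43 with 20 of 61 genes higher, and Rps6 lies in it. A single window of chromosome 13, from 58176156 to 67827002, stood at 0.47 with 11 of 59 genes higher and 1 lower.

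Each library of clone 1E7 carried these shifts against clone 1G2, but on some spans the parental libraries overlapped with the 1E7 libraries. Taken against the mean level of clone 1G2, the windows at the start of chromosome 7 lay between -0.83 and -0.42 in the 1E7 libraries, between -0.19 and 0.07 in the parental libraries and between -0.23 and 0.13 in the single 1G2 libraries. The second 1E7 library had the smaller shift there, at -0.66 to -0.42. On the first span of chromosome 16 the 1E7 libraries lay at -0.85 to -0.54 and the parental ones at -0.35 to -0.06. On chromosome 8 the ranges were 0.18 to 0.57 in the 1E7 libraries and -0.15 to 0.20 in the parental line. At the end of chromosome 7 the windows lay at -0.89 to -0.52 in the 1E7 libraries and at -0.48 to 0.14 in the parental line, so there some parental windows were shifted as well. In the window of chromosome 4 the order differed, with 0.28 to 0.49 in the 1E7 libraries and 0.21 to 0.47 in the parental line, which overlap. In the window of chromosome 13 they were 0.42 to 0.58 and 0.03 to 0.21. On chromosome 2 the 1E7 libraries lay at -0.42 to -0.09 and the parental ones at -0.24 to 0.06. For chromosome 11 these ranges were -0.35 to -0.07 and -0.37 to 0.13. From 59062145 to 170005736 on X they were -0.68 to -0.28 and -0.44 to -0.05. The 1E7 and parental ranges thus overlapped on chromosomes 2 and 11 and on this span of X. DNA copy number was not measured in the data used here, and its part in these shifts was not tested.

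**Figure D5:**
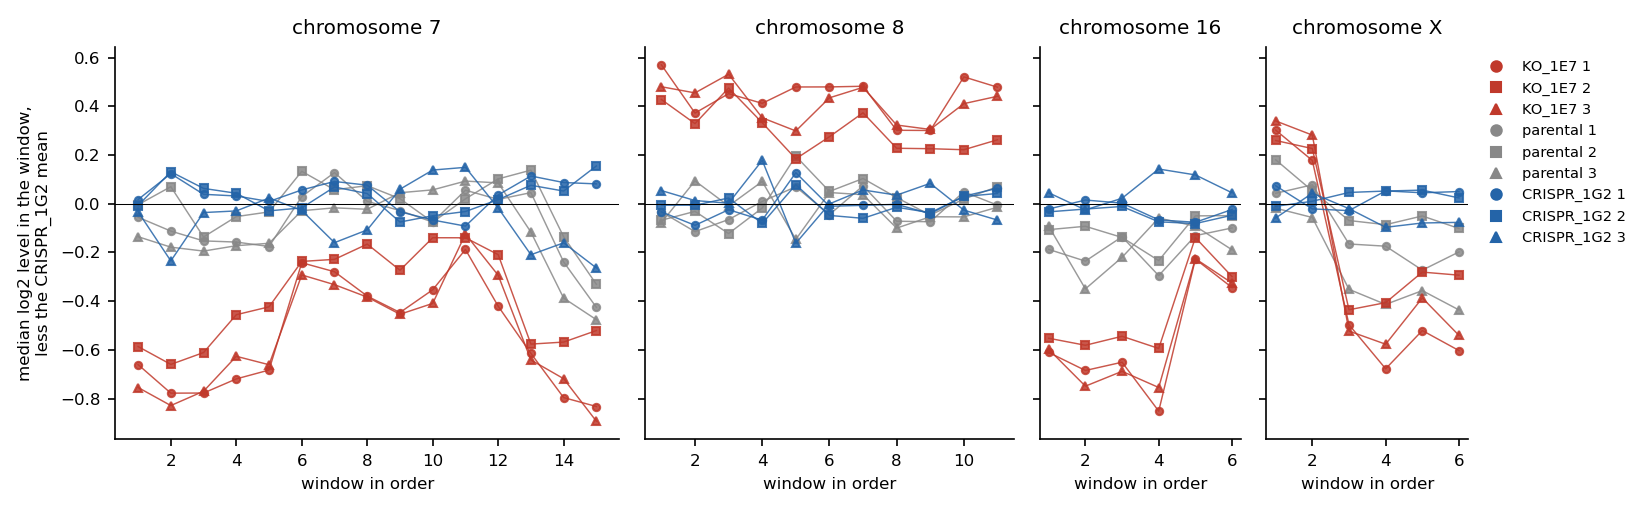
Median log2 level in windows along chromosomes 7, 8, 16 and X for each of the 9 libraries, less the mean of the 1G2 libraries; lines are libraries coloured by group. The 3 lines of clone 1E7 lie below the others at both ends of chromosome 7 and over the first span of chromosome 16, and above nearly all of the others on chromosome 8.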

How the data were processed

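Per the labels' protocols, RNA of frozen cell pellets was purified on a Qiasymphony and enriched with oligo-dT, and the libraries were built with the NEBNext Ultra II kit, whose reads keep no strand. The submitters' processing notes list bcl2fastq 2.17, STAR 2.5.2b, featureCounts from Subread 1.5.2, DESeq2 and the build GRCm38. The sources used here give neither the annotation release nor the strand setting of the counting. The authors deposited raw counts per gene, not normalized, for 49671 genes and 92 spike-in controls. The spike-ins took 0.344% to 0.82% of counts and were left out.

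All 9 libraries were fitted together in R 4.3.3 with the robust quasi-likelihood F-test of edgeR 4.0.16, on TMM factors, after edgeR's expression filter, which kept 15766 genes. P-values were adjusted by Benjamini-Hochberg over all of them and called at 0.05. Since exact permutation of 3 against 3 libraries reaches no p below 0.1, it was not used for single genes. CPM were computed from the scaled library sizes. The contrast was clone 1E7 (KO_1E7) minus clone 1G2 (CRISPR_1G2). The test was tried on simulated counts. Libraries of a group differed by more than sampling noise, so all 9 were kept. DESeq2 1.42.0, other scaling factors, no filter, fewer libraries and further terms in the fit served as alternatives.

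The comparison and the 49 gene lists were chosen with earlier results of these data known. Genes were named by rule: of called genes without overlap and with at least 5 CPM in the higher clone, the 15 highest and 15 lowest fold changes and the 10 in each direction by p, up to 4 called members per list and direction, and up to 3 per chromosome described. Lists with fewer than 2 called members give their 2 most abundant. Vipr2, Vip and cell markers were named in any case, and any other gene was named after its values were seen. Some genes that meet this rule are not reported here. Of the 227 genes named by this rule, 225 had the same symbol for their identifier in GENCODE. Counting intervals use exact 95% limits and hold no error but that of counting.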

Additional observations from a re-analysis of the deposited data

How the results depend on the processing

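Direction was kept in all alternatives by the 199 named genes that were called, and 65 of them kept their call in every alternative and 90 with each library left out in turn. The number of called genes, 2010 in all, was 1993 with RLE factors, 2082 with upper-quartile factors (1049 higher, 1033 lower), 1487 with only the 6 clone libraries and 1390 with no filter on low counts, where 731 were lower. DESeq2 called 3069 genes (1357 higher, 1712 lower, 1616 at least 2-fold), which held 99.4% of the 2010. A term for the word in the names of the third libraries gave 3330 (1550 higher, 1780 lower), and leaving the third libraries out gave 3111 (1596 higher). Without the second 1E7 and the third 1G2 and parental libraries together there were 5557 (2675 higher, 2882 lower, 1865 at least 2-fold); the causes of these changes were not tested. With each library left out in turn the count lay between 453 and 2332, that of higher genes between 273 and 1115, that of lower genes between 180 and 1217 and that of genes at least 2-fold apart between 357 and 1223. Vipr2 kept its direction, with log2 fold changes of -3.44 to -2.54 with each library left out, -3.07 in DESeq2 (adjusted p = 0.0535) and -2.89 with the term for the third libraries, where its adjusted p was 0.0481. It was filtered out, and has no value, in fits of only the clone libraries, without the third libraries and with the 3 libraries left out together. Of the counts for lists and chromosomes, 1497 moved by less than 1.5 times and 745 by more. Genes with fewer than 10 counts, such as Vipr2 in clone 1E7, are limited by depth.

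Whether replicate numbers pair the clones was not tested. Deviations of same-numbered libraries had correlations of -0.0497, 0.127 and 0.0727, and those of libraries with different numbers lay between -0.111 and 0.0681. With a replicate block in the fit of all 9 libraries, 2614 genes were called (1160 higher, 1454 lower, 1344 at least 2-fold), and with a replicate block in the fit of the 6 clone libraries, 283 (162 higher, 121 lower, 278 at least 2-fold).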

Other observations

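Markers of several other cell types were at or near 0 in the clones. Cd3e of T cells had at most 1 count in any clone library, and Ins1, the insulin gene of islet cells, had 0. Myeloid genes were present at low levels without separating the clones: S100a9, which encodes a calcium-binding protein of neutrophils, was at 18.7, 20.7 and 14.9 CPM in clone 1E7 and at 23.9, 13.8 and 12.7 CPM in clone 1G2. In the parental line S100a9 was at 12.3 CPM in the first library, 0 in the second and 0.0278 in the third, so the difference lay among the parental libraries. Summed over the immune marker list the level was 95.4, 97.1 and 81.0 CPM in clone 1E7 and 129.3, 103.3 and 75.2 CPM in clone 1G2, and edgeR called 0 of its 13 tested genes, with 1 lower at an unadjusted p under 0.05 and 1 called by DESeq2. Cela1, an elastase gene listed among acinar markers, was higher in clone 1E7, at 13.1, 7.37 and 12 CPM against 1.09, 2.11 and 1.01 CPM (log2 fold change 2.94 in edgeR). Prss1 of the same list had 0 counts in each library.

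Growth and metabolic lists had few calls with all libraries, beside 5.71% of all genes higher and 7.03% lower. Of 39 tested replication genes 2 were higher and 2 lower, and of 38 mitosis genes 2 were higher and 1 lower, none of which kept its call with each library left out in turn. Of 31 glycolysis and hypoxia genes edgeR called 1, Pfkfb3, which encodes a regulator of glycolytic flux and was lower (log2 fold change -2.59). These counts depended on the libraries used: without the second 1E7 and the third 1G2 and parental libraries together, 14 replication genes were higher and 5 lower, 5 mitosis genes were higher and 9 lower, and 13 glycolysis and hypoxia genes were lower and 1 higher. In the fit without those 3 libraries, 2675 of all 15633 genes tested were higher and 2882 lower. The shares of 5.71% and 7.03% hold only for the fit of all libraries. Among imprinted genes 2 of 11 were lower with all libraries, Igf2os and Phlda2. Phlda2, which encodes a growth-restraining protein of the placenta, was at 4.92, 13.2 and 4.69 CPM in clone 1E7, at 48.7, 45.5 and 31.5 CPM in clone 1G2 and at 21.9, 22.7 and 23.6 CPM in the parental line (log2 fold change -2.46, SE 0.40, edgeR adjusted p = 0.00747).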
